A study of Mus musculus with 64 samples.

Results

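The 8 genes described here code for proteins that colon epithelium secretes toward microbes: the regenerating islet-derived lectins Reg3b, Reg3g and Reg4, the resistin-like protein Retnlb, the ribonuclease Ang4, the intelectin Itln1 and the mucosal pentraxins Mptx1 and Mptx2. They were taken by gene name from both deposited expression tables, where all 8 of the 35534 listed genes were found, and all 8 passed the filter on low values in both tables. Whole colon of wild-type Swiss Webster mice, an outbred stock, had been sequenced in 64 libraries. The mice were specific pathogen free (SPF), carrying a gut microbiota, or germ-free (GF), and GF mice were held in ISOcages while they were treated. Mice aged 8 to 12 weeks, on 12 h of light and 12 h of dark, received intraperitoneal injections of 2.5 mg vancomycin in 100 µl PBS, or of 100 µl PBS alone, 2 per day over 3 days and a last 1 on day 4. Vancomycin, a glycopeptide, kills Gram-positive bacteria by blocking the making of their cell wall. Tissue was collected at 1 of 4 zeitgeber times (ZT, counted in hours from lights on), ZT5, ZT11, ZT17 or ZT23, which made 16 groups of 4 libraries: Vancomycin and PBS at each of 4 times in SPF and in GF mice. Which effects of the antibiotic arise without a microbiota is the question that the GF mice address.

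Reg3b and Reg3g are C-type lectins that bind bacterial cell walls, and in the small intestine their transcription depends on microbes, Myd88 and IL-22 acting through Stat3. Retnlb (RELM-beta) is a goblet cell product that is induced by type 2 cytokines and by colonisation, Ang4 is an antimicrobial ribonuclease of Paneth and goblet cells, and Itln1 binds sugars on microbial surfaces. Mptx1 and Mptx2 are short pentraxins, of the family of C-reactive protein; Mptx2 is known as a marker of mature Paneth cells in the mouse small intestine, and Reg4 marks deep crypt secretory cells of the mouse colon.

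The SPF libraries held between 10044032 and 13615804 estimated counts each, the GF libraries between 10513966 and 15736087. Levels are given as CPM, estimated counts scaled to a common library total within a table, and a gene is called on in a library at 10 CPM or more and off under 1 CPM. Nothing in the labels ties a library to an animal of its own, and p-values therefore reflect only how these libraries vary, which may be technical. A score of distal minus proximal Hox genes, on a log2 scale, lay between 0.98 and 3.69 in SPF libraries and between -3.99 and 3.90 in GF libraries, where 6 of 16 Vancomycin and 6 of 16 PBS libraries were under 0. A Y-linked score was under 3 in 9 of 16 GF Vancomycin and 2 of 16 GF PBS libraries, and in 0 SPF libraries. In whole tissue, fewer cells of a type and less RNA per cell cannot be told apart.

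Per kilobase of the longest annotated transcript (GENCODE vM21), the median level over the 32 SPF libraries was highest for Mptx1, at 2582 CPM per kb, and then came Retnlb at 1798, Reg4 at 986, Itln1 at 358, Mptx2 at 106, Ang4 at 95.6, Reg3b at 0.519 and Reg3g at 0.373 CPM per kb. Over the 32 GF libraries the order began with Retnlb at 777, Itln1 at 580.1, Reg4 at 298 and Mptx1 at 159.8, and went on with Mptx2 at 30.7, Ang4 at 4.62, Reg3b at 0.660 and Reg3g at 0.528 CPM per kb. In each of these orders every gene's range over libraries overlapped that of its neighbours. The tables were processed apart, so no level was tested between SPF and GF libraries. Side by side, Mptx1 had 794, 2063 and 5526 CPM (lowest, median and highest) in SPF and 43.9, 128 and 782 CPM in GF libraries, and all 32 SPF libraries lay above every GF library. Ang4 had 15.4, 67.8 and 1238 CPM in SPF and 0.139, 3.28 and 52.1 CPM in GF libraries, with 22 SPF libraries above every GF library. Reg4 had 63.7, 1007 and 2407 CPM in SPF and 51.8, 304 and 859 CPM in GF libraries, with 19 SPF libraries above every GF library. Itln1, with medians of 408 CPM in SPF and 662 CPM in GF libraries, and Reg3b, with 0.406 and 0.516 CPM in SPF and GF libraries, had the higher median in GF libraries.

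**Figure D1:**
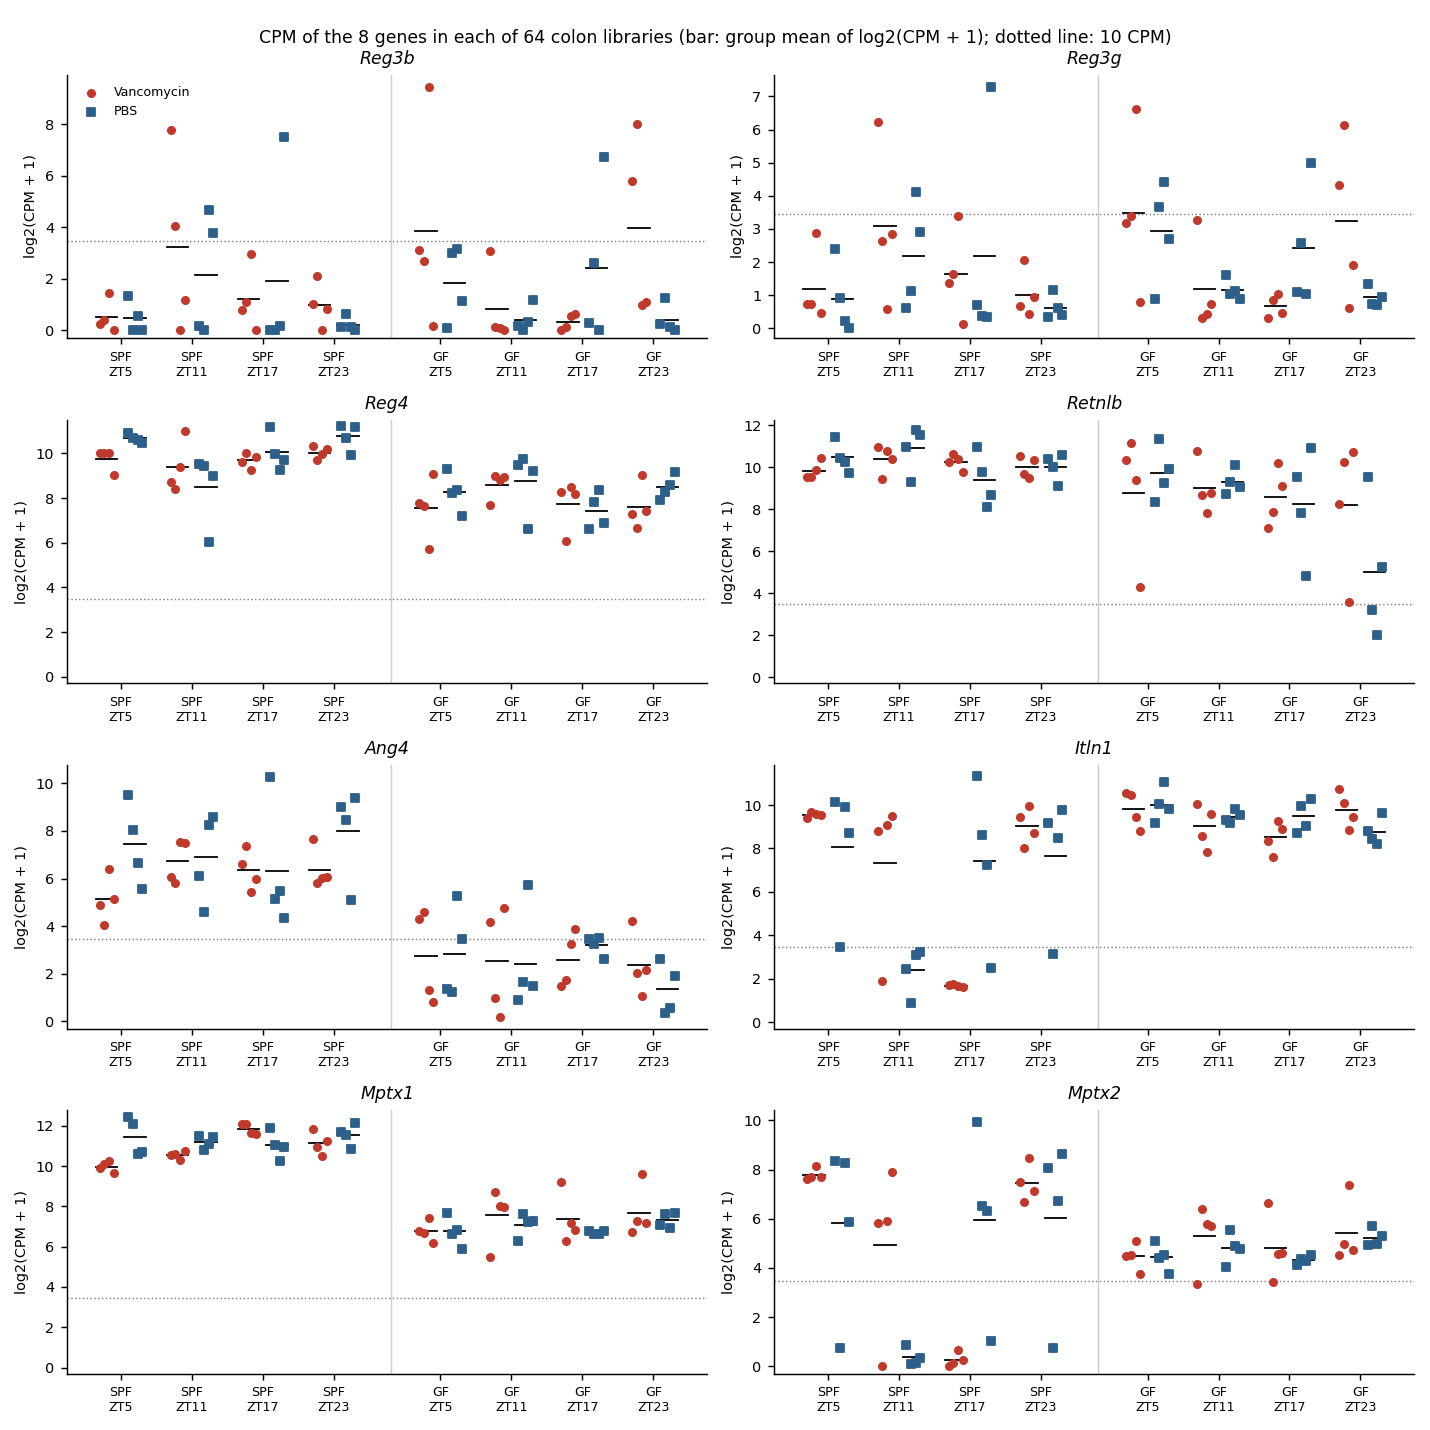
Level of each of the 8 genes in every library, as log2(CPM + 1), by housing and zeitgeber time. Circles are Vancomycin libraries and squares PBS libraries (4 per group), short bars are group means and the dotted line marks 10 CPM. In SPF mice Itln1 and Mptx2 split into a high and a low set of libraries, with all 4 Vancomycin libraries low at ZT17 and all 4 PBS libraries low at ZT11, while Reg3b and Reg3g are high in single libraries.

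Itln1 and Mptx2 were each on in 20 of the 32 SPF libraries and not on in the other 12, and these were the same 20 and the same 12 libraries. At ZT17 both genes were on in 0 of 4 Vancomycin and 3 of 4 PBS libraries, and at ZT11 in 3 of 4 Vancomycin and 0 of 4 PBS libraries. At ZT5 and again at ZT23 they were on in 4 of 4 Vancomycin and 3 of 4 PBS libraries, so that 11 of 16 Vancomycin and 9 of 16 PBS libraries had them on in all. The promoters of these 2 genes and of Mptx1, from 250 bases before to 50 after the start of transcription in the C57BL/6J reference (RefSeq, GRCm38.p6), are printed because the levels of the 3 genes part in SPF libraries. Capitals mark matches on either strand to TATAAA, the core of a TATA box, or to TTCNNNGAA, the core of a STAT site.
Itln1, GRCm38.p6, chr1:171535245-171535544, minus strand: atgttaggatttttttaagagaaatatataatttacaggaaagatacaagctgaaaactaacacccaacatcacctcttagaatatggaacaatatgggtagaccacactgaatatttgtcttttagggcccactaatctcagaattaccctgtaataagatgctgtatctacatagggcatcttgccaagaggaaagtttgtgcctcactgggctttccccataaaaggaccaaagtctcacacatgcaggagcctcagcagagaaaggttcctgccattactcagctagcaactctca
Mptx2, GRCm38.p6, chr1:173277707-173278006, minus strand: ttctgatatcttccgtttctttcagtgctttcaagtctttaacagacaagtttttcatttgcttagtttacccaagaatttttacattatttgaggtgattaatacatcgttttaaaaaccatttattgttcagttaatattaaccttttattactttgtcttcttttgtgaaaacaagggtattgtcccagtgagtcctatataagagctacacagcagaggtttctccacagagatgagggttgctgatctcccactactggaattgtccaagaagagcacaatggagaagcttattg
Mptx1, GRCm38.p6, chr1:174330268-174330567, plus strand: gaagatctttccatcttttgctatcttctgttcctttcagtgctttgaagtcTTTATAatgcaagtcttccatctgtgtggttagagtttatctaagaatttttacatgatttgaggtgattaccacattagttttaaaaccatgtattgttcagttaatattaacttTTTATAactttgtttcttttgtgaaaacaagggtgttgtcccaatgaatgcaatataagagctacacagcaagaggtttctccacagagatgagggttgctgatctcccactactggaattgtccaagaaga
The Mptx1 and Mptx2 promoters had the same base at 252 of 277 aligned positions, with 46 gap bases. Mptx1 held TATAAA at 2 places and Mptx2 and Itln1 at none, while 13.6% of 32851 promoters of this length held it. Both matches in Mptx1 were on the reverse strand, printed as TTTATA, and neither lay shortly before the start. Closer to the start, the Mptx1 and Mptx2 promoters both read tataagagctacacagca. Whether a TATA box works in either promoter was not tested. None of the 3 promoters held TTCNNNGAA, which 8.30% of promoters held.

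At ZT17, Itln1 had 2.25, 2.33, 2.12 and 2.07 CPM in the SPF Vancomycin libraries, against 2572, 396, 152 and 4.58 CPM in the SPF PBS libraries. Mptx2 had 0, 0.0893, 0.578 and 0.201 CPM in the Vancomycin libraries, against 973, 90.0, 78.6 and 1.04 CPM in the PBS libraries. For both genes the groups did not overlap, although the lowest PBS library lay near the Vancomycin libraries. Each SE of a fold change or slope is an approximation, the size of the value divided by the square root of its F statistic. Itln1 fell by 8.47 ± 1.70 (SE) on the log2 scale (edgeR, adjusted p = 0.0196) and Mptx2 fell by 10.35 ± 2.20 (SE) on the log2 scale (adjusted p = 0.0303). They were the 2 of the 8 genes called at this time, where 0.319% of all 16938 tested genes were called and 0.189% were called lower. The size of the Mptx2 fold rests on Vancomycin libraries with 0 to 6.92 estimated counts and on a prior count, and is no bound. The 12 SPF libraries with both genes not on lay in 6 of the 8 SPF groups, 5 after vancomycin and 7 after PBS. Whether inherited differences between mice of this outbred stock took part in the split was not tested, and with 4 libraries a group they cannot be told apart from an effect of vancomycin at ZT17. Each call was lost without any single Vancomycin library of ZT17 or without PBS replicate 1, at adjusted p of up to 0.1004 for Itln1 and 0.133 for Mptx2, and with limma on log2(CPM + 1), at adjusted p = 0.176 and 0.218.

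At ZT11 the difference ran the other way. Itln1 had 448, 2.69, 543 and 731 CPM in the SPF Vancomycin libraries, against 4.45, 0.824, 7.57 and 8.43 CPM in the SPF PBS libraries. Mptx2 had 55.2, 0, 59.7 and 240.3 CPM in the Vancomycin libraries, against 0.841, 0.0822, 0.0865 and 0.278 CPM in the PBS libraries. Vancomycin replicate 2 lay within or below the PBS range for each gene, so the groups overlapped. The log2 fold changes of 6.34 ± 1.53 for Itln1 (edgeR, adjusted p = 0.125) and 8.10 ± 2.06 for Mptx2 (adjusted p = 0.153) did not pass. By edgeR, 0 of the 8 genes and 0% of all tested genes were called at ZT11, and 1670 genes and 2 of the 8 had an unadjusted p under 0.05. DESeq2 called 102 of all genes at this time, Itln1 and Mptx2 among them, each at adjusted p = 0.000103.

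Whether the vancomycin effect differed between times was tested directly. The treatment by time test called 0.36% of all tested genes in SPF libraries, Itln1 (adjusted p = 0.0089) and Mptx2 (adjusted p = 0.0133) among them, and none of the other 6 genes. Both calls held without each of the 32 libraries in turn, at adjusted p between 0.0022 and 0.0332 for Itln1 and between 0.00552 and 0.0499 for Mptx2, and were lost with limma, at adjusted p = 0.127 and 0.177. They rest on the same split of 20 and 12 libraries, in which the part of inherited differences was not tested. At ZT23 in edgeR 0 of the 8 genes and 0% of all tested genes were called, and 1243 of all genes and 0 of the 8 had an unadjusted p under 0.05. Averaged over the 4 times, Itln1 and Mptx2 had log2 fold changes of -0.37 ± 0.64 (adjusted p = 0.831) and -0.47 ± 1.09 (adjusted p = 0.885) in edgeR.

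**Figure D2:**
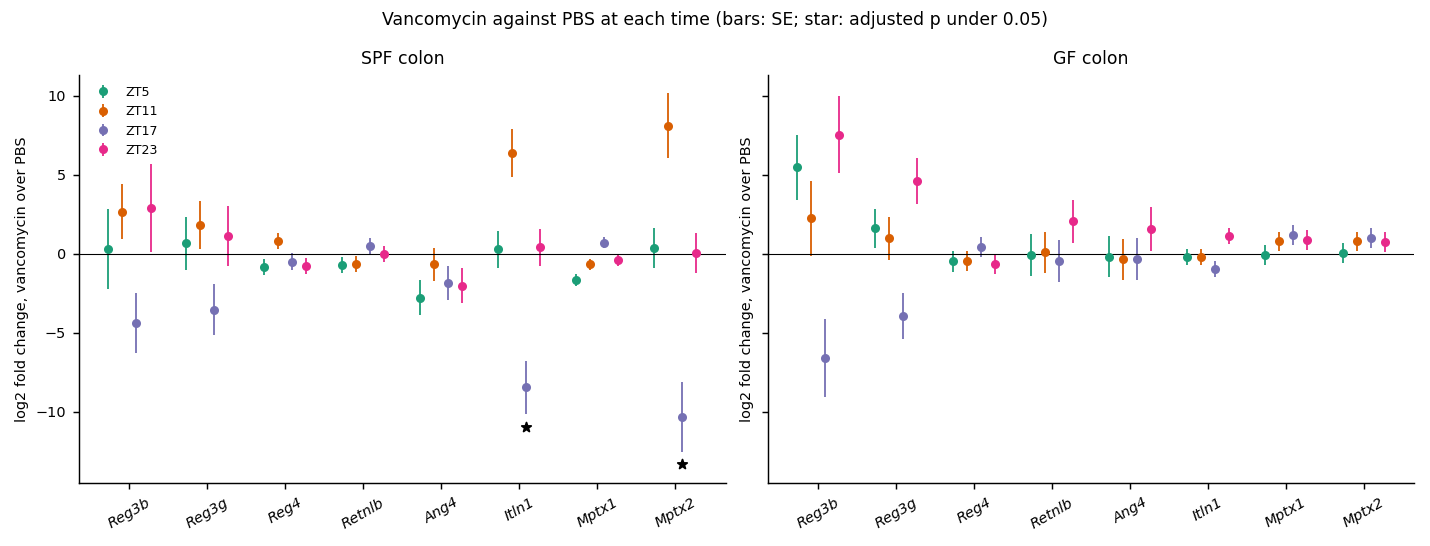
Log2 fold change of Vancomycin over PBS with its approximate SE (size of the fold change over the square root of F) at each zeitgeber time, for SPF (left) and GF colon (right). Stars mark adjusted p under 0.05. In SPF colon Itln1 and Mptx2 stand above 0 at ZT11 and below 0 at ZT17, where both carry a star, and Reg3b has the widest bar in each panel.

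In GF libraries both genes were present throughout. Itln1 had 196, 662 and 2166 CPM (lowest, median and highest of 32) and was on in all of them, and Mptx2 had 9.27, 24.4 and 166.0 CPM and was on in 30 of 32. At ZT17 Itln1 had 325, 196, 619 and 479 CPM in GF Vancomycin libraries and 412, 994, 523 and 1226 CPM in GF PBS libraries, with overlapping ranges. Its log2 fold change was -0.96 ± 0.51 (edgeR, adjusted p = 0.994), and that of Mptx2 was 1.00 ± 0.63 (adjusted p = 0.994). In edgeR, 0 of the 8 genes and 0% of all 16951 tested genes were called after vancomycin in GF libraries at ZT5, ZT11, ZT17 or ZT23. Of the 8, unadjusted p was under 0.05 for 1 at ZT5 (Reg3b), 0 at ZT11, 2 at ZT17 (Reg3b and Reg3g) and 3 at ZT23 (Reg3b, Reg3g and Itln1). Over all 16951 tested genes it was under 0.05 for 606, 832, 757 and 2050 at these times. DESeq2 called 1 pair of gene and time, Reg3g at ZT23 (adjusted p = 0.0496), where it called 55 of all genes, and limma called 0.

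**Figure D3:**
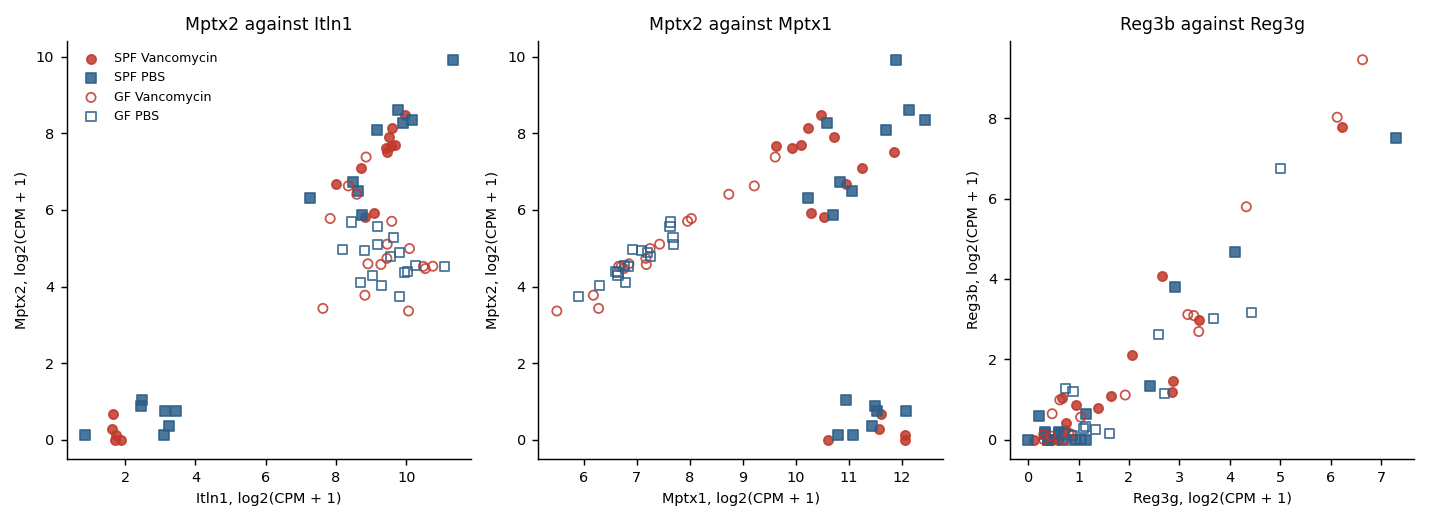
Libraries by the level of Itln1 and Mptx2 (left), Mptx1 and Mptx2 (middle) and Reg3g and Reg3b (right), each as log2(CPM + 1). Circles are Vancomycin and squares PBS libraries, filled for SPF and open for GF. The 12 SPF libraries low in both Itln1 and Mptx2 stand apart in the left panel, and in the middle panel the same 12 are as high in Mptx1 as other SPF libraries.

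Mptx1 did not share this split. In the 12 SPF libraries without Mptx2, Mptx1 had 1552, 2928 and 4316 CPM (lowest, median and highest), and in the 20 libraries with Mptx2 it had 794, 1677 and 5526 CPM. The estimated counts of Mptx2 were at most 0.0528% of those of Mptx1 in the 12 libraries and 3.45% to 25.7% of them in the 20 libraries. In GF libraries this share ran only from 12.8% to 25.5% with a median of 19.8%, and the levels of the 2 pentraxins followed each other (Pearson r = 0.98, Spearman rho = 0.96 over 32 libraries, which also share depth and tissue makeup). The transcripts of Mptx1 and Mptx2 share 73 runs of 75 bases, 10.1% of the runs of each, so that a read in such a run can be given to either gene. Within the 20 SPF libraries with both genes on, Itln1 and Mptx2 also followed each other (r = 0.83, rho = 0.86), and in GF libraries they did not (r = -0.29, rho = -0.33).

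The split extended to neighbouring genes on chromosome 1. Of the 20 tested genes most like Mptx2 over the 32 SPF libraries, by the size of r, 11 lay on chromosome 1, as did 11 of the 20 most like Itln1, while 5.95% of the tested genes lay there. In GF libraries these numbers were 4 and 3. By gene order in GENCODE vM21 (GRCm38), 26 tested genes stood between Itln1 and Mptx2 and 18 between Mptx2 and Mptx1. Gm9765, annotated as a pseudogene, stood next to Itln1 and was the gene most like Itln1 and Mptx2 in SPF libraries. It had 0, 0.126 and 0.314 CPM (lowest, median and highest) in the 12 libraries and 26.3, 106 and 372 CPM in the 20 libraries. Ifi202b, an interferon-induced gene with 3 tested genes between it and Mptx1, had 0 to 0.0899 CPM in the 12 libraries and 0.706 to 7.69 CPM in the 20 libraries, with no overlap for either gene.

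Other genes of the stretch were higher where Itln1 and Mptx2 were low. Dusp23, a phosphatase gene next to Mptx2 in the order of tested genes, had 10.3, 12.7 and 15.9 CPM in the 12 libraries and 6.03, 8.43 and 12.5 CPM in the 20 libraries. Copa, a coatomer subunit, had 266 to 303 CPM in the 12 libraries and 182 to 283 CPM in the 20 libraries, and both overlapped. Mptx2 apart, 44 tested genes stood between Itln1 and Mptx1, of which 8 had an r with Mptx2 of at least 0.5 in size in SPF libraries (18.2%, against 1.69% of all tested genes), and 1 in GF libraries (2.27%, against 8.12%). Gm9765, Ifi202b, Dusp23, Copa and this stretch were chosen after their values were seen, and these figures are a description with no test.

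**Figure D4:**
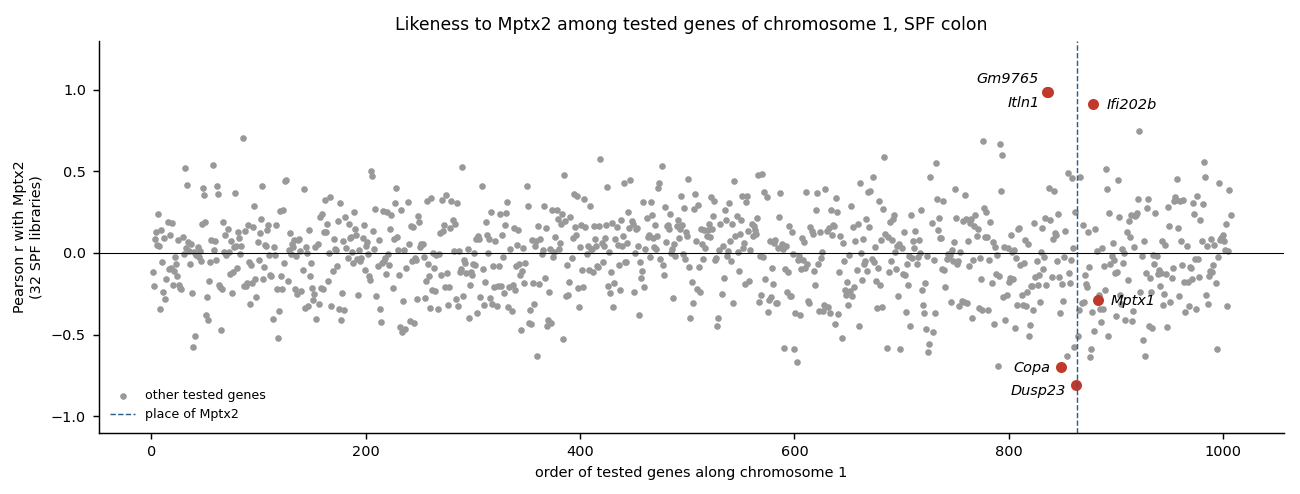
Pearson r of each tested gene of chromosome 1 with Mptx2 over the 32 SPF libraries, by the order of the genes along the chromosome (n = 1007 tested genes). The dashed line marks the place of Mptx2, and named genes are red. Itln1, Gm9765 and Ifi202b stand near 1, Dusp23 at -0.81, Copa at -0.70 and Mptx1 at -0.29.

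Markers of cells that could carry these genes are given by treatment, not for the 12 and the 20 libraries apart. Their part in the split was not tested. Of a list of 25 Paneth cell genes, 23 were in the tables, of which 10 were at 0 in every SPF library. The summed level of the list was 1.56 to 32.3 CPM in SPF Vancomycin and 2.89 to 29.7 CPM in SPF PBS libraries. Its most abundant gene, Lyz1, had 1.39, 11.1 and 32.1 CPM (lowest, median and highest) over the SPF libraries. All alpha-defensin genes together had a median of 0.0350 CPM in SPF libraries. A list of 10 goblet cell genes summed to 10227 to 23497 CPM in SPF Vancomycin and 9611 to 26270.2 CPM in SPF PBS libraries. In GF libraries the Paneth list summed to 1.58 to 20.5 CPM after vancomycin and 0.976 to 12.3 CPM after PBS, with 11 genes at 0 in every library.

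The level of Mptx1 itself was lower in SPF Vancomycin libraries at ZT5, where it had 972, 1101, 1197 and 794 CPM, against 5526, 4316, 1538 and 1663 CPM in the PBS libraries. These groups did not overlap. The log2 fold change was -1.68 ± 0.36 (edgeR, adjusted p = 0.0694), which did not pass. At ZT5 0 of the 8 genes were called, against 0.0827% of all tested genes. Unadjusted p was under 0.05 for Mptx1 and Ang4 among the 8, and for 2399 of all 16938 tested genes. DESeq2 called Mptx1 at ZT5 (adjusted p = 0.00151), among 240 of all genes. In edgeR it was called without PBS replicate 4 (adjusted p = 0.0160) or replicate 3 (adjusted p = 0.0445). At ZT17 the values ran the other way, at 4306, 4275, 3135 and 3042 CPM in Vancomycin and 3807, 2141, 1202 and 1976 CPM in PBS libraries, with overlap (log2 fold change 0.69 ± 0.36, edgeR adjusted p = 0.617).

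The level of Mptx1 differed between times of day after vancomycin (edgeR F test, adjusted p = 0.00614). Its means in SPF Vancomycin libraries were 1016 ± 174 CPM at ZT5, 1492 ± 185 at ZT11, 3689 ± 695 at ZT17 and 2384 ± 964 at ZT23 (SD, n = 4 each), and the ZT17 libraries lay above all those of ZT5 and ZT11. After PBS the means were 3261 ± 1980.1, 2409 ± 519.9, 2281 ± 1096 and 3157 ± 1106 CPM at the same times, and the test did not pass (adjusted p = 0.584). That the time pattern differed between treatments was not called for Mptx1 (treatment by time, adjusted p = 0.134). The call after vancomycin held without each of the 16 Vancomycin libraries in turn, at adjusted p between 0.00568 and 0.0173.

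After vancomycin, 4 of the 8 genes were called for time of day in SPF libraries (Mptx1, Itln1, Mptx2 and Reg3b), against 8.2% of all tested genes. After PBS, 4 were called (Itln1, Mptx2, Reg3b and Reg3g), against 8.9%. After vancomycin the adjusted p were 0.0133 for Itln1, 0.0219 for Mptx2 and 0.0385 for Reg3b. After PBS they were 0.0240 for Itln1, 0.0223 for Mptx2, 0.0445 for Reg3b and 0.0459 for Reg3g. With the position score as a covariate, the calls after PBS were lost for Itln1 (adjusted p = 0.0515) and Mptx2 (adjusted p = 0.0611), and with limma they were lost at adjusted p = 0.0550 and 0.0529. Over all tested genes, 398 were called after PBS with this covariate and 1452 with limma, against 1507 in the main fit. The call of Mptx2 after vancomycin was lost without any 1 of the 4 ZT17 Vancomycin libraries, at adjusted p between 0.0532 and 0.0650. Leaving out 1 PBS library at a time moved the number called after PBS between 0 and 6, with 0 called without PBS ZT11 replicate 3 or replicate 4 and 2 called without any of 10 others. In GF libraries 0 of the 8 genes were called in edgeR for time of day after vancomycin or after PBS, each against 0.142% of all tested genes. Of the 8, 3 and 2 had an unadjusted p under 0.05, as did 1612 and 2491 of all 16951 tested genes. DESeq2 called 1 of the 8 after vancomycin and 0 after PBS, and limma called 0. Over all genes DESeq2 called 179 after vancomycin and 403 after PBS, and limma called 24 and 26.

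Ang4 and Retnlb are the 2 other secretory effectors. Over the 16 libraries of each treatment, Ang4 had 15.4, 64.1 and 199.7 CPM (lowest, median and highest) in SPF Vancomycin and 19.3, 182 and 1238 CPM in SPF PBS libraries. The ranges overlapped, and the highest values, 726 CPM at ZT5, 1238 CPM at ZT17 and 508 and 669.9 CPM at ZT23, were all in PBS libraries. Its log2 fold change over all times was -1.84 ± 0.54 (edgeR, adjusted p = 0.0938), and DESeq2 called it (adjusted p = 0.0152), among 493 of all genes. Over all times edgeR called 0 of the 8 genes in SPF libraries, against 0.809% of all tested genes, and limma called 0 of the 8. Unadjusted p was under 0.05 for Ang4 and for Mptx1 (-0.52 ± 0.18, edgeR, adjusted p = 0.151), and for 2737 of all 16938 tested genes. Leaving out 1 library at a time gave values of -2.01 to -1.001 for Ang4, the smallest without PBS ZT17 replicate 1, at adjusted p between 0.0577 and 0.260.

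Retnlb had 691, 1250.2 and 1987 CPM in SPF Vancomycin and 273, 1261 and 3491 CPM in SPF PBS libraries. Its log2 fold change over all times was -0.23 ± 0.25 (edgeR, adjusted p = 0.700). In GF libraries Retnlb spanned a far wider range, from 10.9 to 2289.9 CPM after vancomycin and from 3.04 to 2607 CPM after PBS. Its lowest GF values were in ZT23 PBS libraries, which had 731, 8.27, 3.04 and 37.3 CPM, against 304, 1202, 10.9 and 1667 CPM in ZT23 Vancomycin libraries, with overlap (log2 fold change 2.03 ± 1.37, edgeR adjusted p = 0.552). Ang4 in GF libraries had 0.139, 3.28 and 25.9 CPM after vancomycin and 0.291, 3.95 and 52.1 CPM after PBS, and was on in 6 of 16 Vancomycin and 5 of 16 PBS libraries. Over the SPF libraries Ang4 went with Retnlb (r = 0.69, rho = 0.75) and with Mptx1 (r = 0.65, rho = 0.62). In GF libraries Ang4 and Mptx1 did not go together (r = -0.36, rho = -0.31).

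Reg4 was on in all 64 libraries. Over all times it had 337, 962 and 2034 CPM in SPF Vancomycin and 63.7, 1226 and 2407 CPM in SPF PBS libraries, with a log2 fold change of -0.34 ± 0.26 (edgeR, adjusted p = 0.543). At ZT5 it had 1023, 1038, 1028 and 519 CPM in the SPF Vancomycin libraries, against 1901, 1654, 1562 and 1434 CPM in the SPF PBS libraries. These groups did not overlap, and the log2 fold change of -0.86 ± 0.52 did not pass (adjusted p = 0.446). In GF libraries it had 51.8, 252 and 531 CPM after vancomycin and 95.9, 317 and 859 CPM after PBS (log2 fold change -0.30 ± 0.32, edgeR, adjusted p = 1.00).

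Reg3b and Reg3g were near 0 in most libraries and high in a few. Their promoters are printed because the levels of the 2 genes followed each other in both tables (r = 0.95 over the 32 SPF and over the 32 GF libraries, with rho = 0.83 and 0.76). Capitals again mark TATAAA and TTCNNNGAA on either strand.
Reg3b, GRCm38.p6, chr6:78370635-78370934, plus strand: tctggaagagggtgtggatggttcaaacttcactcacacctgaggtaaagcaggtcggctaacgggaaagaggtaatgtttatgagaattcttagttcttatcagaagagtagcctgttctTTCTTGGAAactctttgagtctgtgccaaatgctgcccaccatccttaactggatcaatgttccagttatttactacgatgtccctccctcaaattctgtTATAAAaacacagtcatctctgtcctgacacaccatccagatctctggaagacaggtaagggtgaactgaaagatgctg
Reg3g, GRCm38.p6, chr6:78468825-78469124, minus strand: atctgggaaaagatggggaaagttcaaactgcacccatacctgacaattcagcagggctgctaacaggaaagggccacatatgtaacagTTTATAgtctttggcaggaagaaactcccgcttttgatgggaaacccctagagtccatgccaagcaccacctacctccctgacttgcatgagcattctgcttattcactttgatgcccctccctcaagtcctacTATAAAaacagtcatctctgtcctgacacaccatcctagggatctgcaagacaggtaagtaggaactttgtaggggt
These promoters had the same base at 214 of 290 aligned positions, with 20 gap bases. Each held TATAAA shortly before the start, and Reg3g held it once more further off, and Reg3b held TTCNNNGAA at 1 place. No match in Reg3g says only that these letters are not in this window.

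Reg3b was on in 2 of 16 SPF Vancomycin and 3 of 16 SPF PBS libraries and off in 8 and 12 of them. Its medians were 0.931 CPM in SPF Vancomycin and 0.123 CPM in SPF PBS libraries. At ZT11 it had 218, 15.7, 0 and 1.26 CPM in Vancomycin libraries and 0.139, 0, 24.4 and 12.9 CPM in PBS libraries. At ZT17 it had 0.718, 1.12, 6.85 and 0 CPM in Vancomycin libraries and 0, 0, 0.138 and 183 CPM in PBS libraries. Each of these groups had libraries at or near 0 and overlapped its counterpart. The log2 fold changes were 2.66 ± 1.73 at ZT11 (edgeR, adjusted p = 0.647) and -4.39 ± 1.92 at ZT17 (adjusted p = 0.510), and 0.36 ± 1.12 over all times (adjusted p = 0.920).

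Reg3g gave the same picture at lower peaks. At ZT11 it had 73.7, 5.25, 0.503 and 6.25 CPM in SPF Vancomycin libraries and 0.521, 1.20, 16.2 and 6.54 CPM in SPF PBS libraries. At ZT17 it had 1.60, 2.11, 9.50 and 0.0864 CPM in Vancomycin libraries and 0.612, 0.307, 0.263 and 156 CPM in PBS libraries, so that the same PBS library was high for both genes. Without that library, PBS ZT17 replicate 4, the time of day call after PBS was lost for both, at adjusted p = 0.0538 for Reg3b and 0.164 for Reg3g. In all, leaving out 1 PBS library ended each of these calls in 11 of 16 cases. The call of Reg3b after vancomycin was lost in 10 of 16 cases, with adjusted p = 0.651 without Vancomycin ZT11 replicate 1. It was also lost with DESeq2 (adjusted p = 0.106), limma (adjusted p = 0.477), a replicate block (adjusted p = 0.165) and the position score as a covariate (adjusted p = 0.874). Over all genes the position covariate left 790 time of day calls after vancomycin, against 1389 in the main fit. After PBS the call of Reg3b was lost with DESeq2 (adjusted p = 0.0807), and the calls of both genes were lost without a low-count filter (adjusted p = 0.0564 and 0.0583), with limma (adjusted p = 0.619 and 0.627) and with a replicate block (adjusted p = 0.196 and 0.216).

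Small intestinal markers stood beside these libraries, and their part in the Reg3 levels was not tested. Vancomycin ZT11 replicate 1, with the highest SPF level of Reg3b, had Sis and the alpha-defensins at 0 and Fabp6 at 1.09 CPM. Yet the same library had the highest SPF level of Alpi, another small intestinal marker (37.5 CPM, against a median of 8.49 CPM). Its level of the ileal bile acid transporter Slc10a2 was 20.5 CPM, against a median of 8.27 CPM. PBS ZT17 replicate 4 had the highest level among SPF libraries of Sis, the brush border sucrase-isomaltase (48.5 CPM, against a median of 0.0199 CPM), of Fabp6, the ileal bile acid binding protein (48.5 CPM, against a median of 2.04 CPM), and of the summed alpha-defensins (15.4 CPM). A list of 16 small intestinal enterocyte genes, all in the tables and none at 0 throughout, summed to 375 to 1177 CPM in SPF Vancomycin and 285 to 1128 CPM in SPF PBS libraries. Its highest sums were in these 2 libraries. In GF libraries the list summed to 489 to 3145 CPM after vancomycin and 593 to 2710.1 CPM after PBS.

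In GF libraries the highest Reg3b values were 702 CPM at ZT5 and 54.5 and 259 CPM at ZT23 after vancomycin, and 106 CPM at ZT17 after PBS. At ZT23 Reg3b had 54.5, 259, 0.981 and 1.16 CPM in GF Vancomycin libraries, against 0.196, 1.40, 0.101 and 0 CPM in GF PBS libraries, and Reg3g had 19.1, 69.0, 0.542 and 2.79 CPM, against 1.52, 0.664, 0.643 and 0.916 CPM. The groups overlapped for both. The log2 fold changes of 7.52 ± 2.43 for Reg3b and 4.61 ± 1.47 for Reg3g did not pass (edgeR, adjusted p = 0.309 for each). At ZT17 the values were -6.58 ± 2.47 and -3.96 ± 1.48 (adjusted p = 0.994 for each), where the library with 106 CPM was a PBS library.

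Those 4 GF libraries had the 4 lowest position scores of the table, -3.99, -2.84, -2.09 and -1.45. In the same order they had 31.2, 20.9, 21.9 and 5.43 CPM of the small intestinal sucrase Sis, against a median of 0.0977 CPM over all GF libraries, and 459.95, 445, 456 and 429 CPM of the ileal bile acid transporter Slc10a2, against a median of 83.4 CPM. Their Y-linked scores were 1.88, 1.73, 1.45 and 1.66. Fabp6, in the same order, had 3.57, 1.85, 8.13 and 1.74 CPM, against a median of 1.70 CPM over all GF libraries. The summed alpha-defensins had 0, 0, 1.91 and 0 CPM, against a median of 0.0348 CPM. The part of these markers in the Reg3 values was not tested. Reg3b was on in 4 of the 12 GF libraries with a score under 0 and in 0 of the 20 others, whose highest value was 1.40 CPM, and Reg3g was on in 6 of the 12 and 0 of the 20, whose highest value was 2.79 CPM. Tested as a slope per unit of score within the 8 groups, 4 of the 8 genes passed in GF libraries, against 20.4% of all tested genes. Of all tested genes 9.29% were lower and 11.1% higher toward distal colon. Reg3b fell by 1.65 ± 0.17 on the log2 scale per unit toward distal (edgeR, adjusted p = 8.63e-08) and Reg3g fell by 1.03 ± 0.08 (adjusted p = 1.22e-09). Both calls were kept with the Y-linked score as a covariate. Itln1 fell by 0.24 ± 0.07 (adjusted p = 0.0142), and Reg4 rose by 0.42 ± 0.06 (adjusted p = 8.93e-06). Position was not assigned in the design, so these slopes are associations.

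The other GF slopes were -0.62 ± 0.23 for Retnlb (adjusted p = 0.0595), -0.59 ± 0.26 for Ang4 (0.106), 0.22 ± 0.09 for Mptx1 (0.0661) and 0.21 ± 0.09 for Mptx2 (0.0854). These were called by DESeq2, which called all 8 genes, and by edgeR without Vancomycin ZT5 replicate 3, the library with the lowest score. Over all tested genes DESeq2 called 4110 for GF position, against 3465 in the main edgeR fit. The call of Itln1 was lost without Vancomycin ZT11 replicate 1 (adjusted p = 0.0525) and with the Y-linked score as a covariate (adjusted p = 0.0712). By position score, Reg4 had 51.8, 177 and 331 CPM (lowest, median and highest) in the 12 GF libraries under 0. In the 20 others Reg4 had 65.5, 413 and 859 CPM, a higher median with overlapping ranges. Itln1 had 701, 1078 and 2166 CPM in the 12 libraries and 196, 470.5 and 792 CPM in the 20 others.

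**Figure D5:**
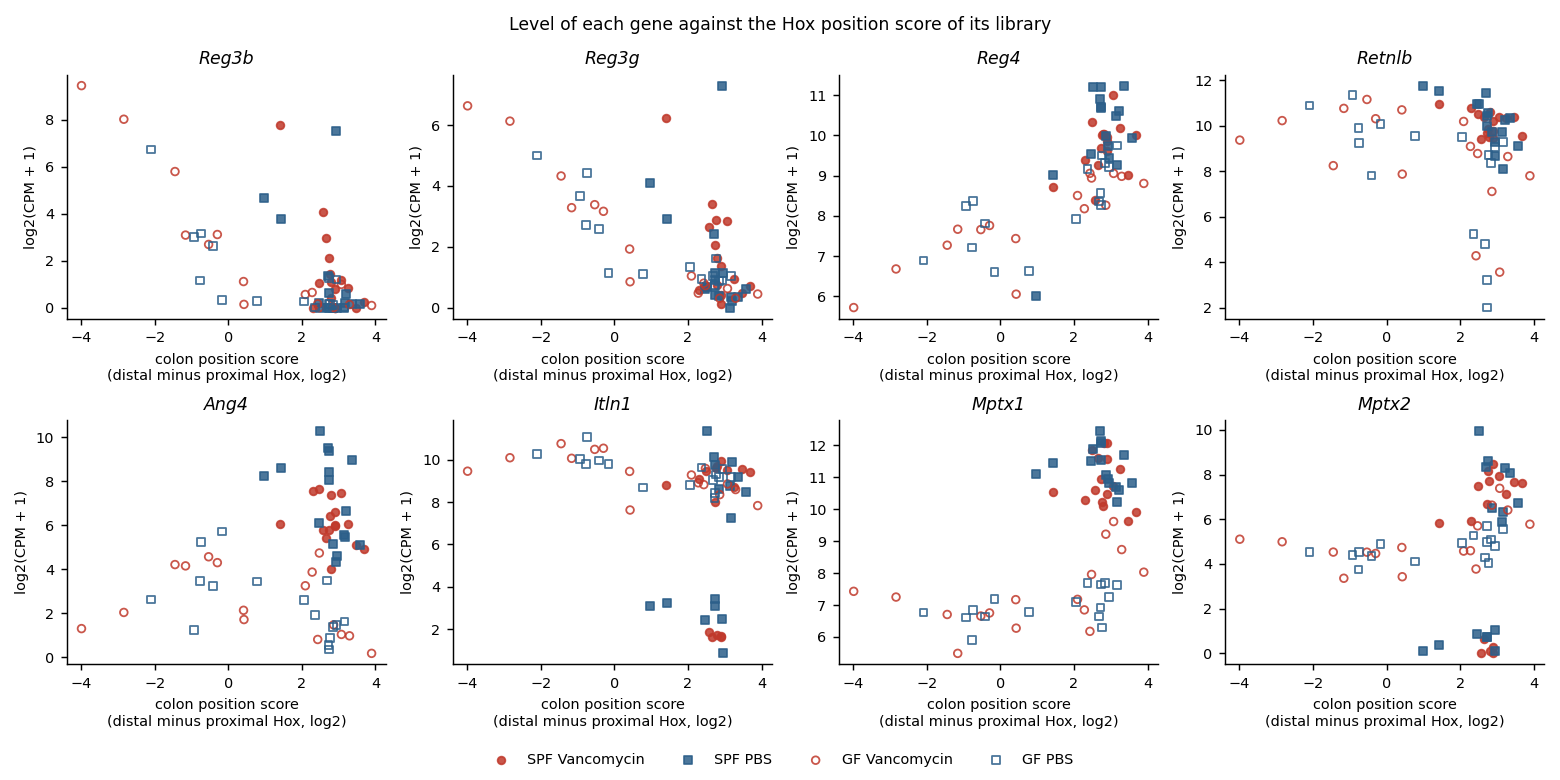
Level of each gene, as log2(CPM + 1), against the colon position score of its library, where higher scores mean more distal Hox expression. Circles are Vancomycin and squares PBS libraries, filled for SPF and open for GF. In GF libraries Reg3b and Reg3g climb toward negative scores and Reg4 declines, and in SPF libraries the 12 low Itln1 and Mptx2 libraries lie at scores from 0.98 upward among the others.

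SPF libraries covered less of the score. There edgeR called 0 of the 8 genes for position, against 1.71% of all tested genes. Reg3b (-4.01 ± 1.13, adjusted p = 0.0657), Retnlb (-0.86 ± 0.26, adjusted p = 0.0956), Reg3g (-2.36 ± 0.81, adjusted p = 0.159) and Ang4 (-1.78 ± 0.64, adjusted p = 0.184) had an unadjusted p under 0.05, as did 2222 of all 16938 tested genes. DESeq2 called Reg3b and Ang4, among 541 of all genes, and limma called Retnlb, among 369. The edgeR test called Reg3b without PBS ZT17 replicate 1 (adjusted p = 0.0295) or replicate 2 (adjusted p = 0.0433). Without PBS ZT17 replicate 4, the library with Sis and alpha-defensins, it called Reg3b (adjusted p = 0.00556) and Reg3g (adjusted p = 0.0224). The slopes of Itln1 (-0.65 ± 0.76, adjusted p = 0.783) and Mptx2 (0.02 ± 0.95, adjusted p = 0.996) did not pass, and with the score as a covariate their treatment by time calls stayed while their time of day calls after PBS were lost. Over all genes this covariate left 56 treatment by time calls, against 61 without it, and 398 time of day calls after PBS, against 1507.

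Whether vancomycin acted differently in SPF and GF mice was tested as the difference of the 2 effects over all times in 1 fit of all 64 libraries. In edgeR 0 of the 8 genes and 0% of 16604 genes tested in both tables passed. Of all genes 1651, and of the 8 genes 2, had an unadjusted p under 0.05: Mptx1, with a difference of -1.19 ± 0.36 (adjusted p = 0.295), and Ang4, with -1.99 ± 0.85 (adjusted p = 0.450). DESeq2, limma, and edgeR with the Y-linked score as a covariate also called 0 of the 8. That score was under 3 in 9 of 16 GF Vancomycin and 2 of 16 GF PBS libraries, so in GF it is partly mixed with treatment. For Mptx1 the effects set side by side were -0.52 ± 0.18 in SPF and 0.67 ± 0.31 in GF libraries (edgeR, adjusted p = 0.151 in SPF and 1.00 in GF). In GF libraries 0 of the 8 genes and 0% of all genes passed over all times in edgeR, 672 genes and 1 of the 8 (Mptx1) had an unadjusted p under 0.05, and DESeq2 and limma called 0 of the 8.

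Genes around these effectors were read from lists. Of 42 other epithelial antimicrobial genes, 27 were tested in SPF libraries, and 3 rose over all times and 0 fell, against 0.809% of all tested genes called in either direction: Saa1 (1.13 ± 0.19, edgeR, adjusted p = 0.0084) and Saa2 (1.16 ± 0.22, adjusted p = 0.0154), serum amyloid A proteins, and Pglyrp1 (0.31 ± 0.07, adjusted p = 0.0339), a peptidoglycan recognition protein. The list's median log2 fold change was 0.11, against -0.00403 over all tested genes. Of 23 genes of the IL-22 and Stat3 pathway, which drives Reg3 genes, 19 were tested and 1 rose, the oncostatin M receptor Osmr (0.68 ± 0.16, adjusted p = 0.0445), with a median of 0.14 over the list. Of 21 tested genes of the type 2 and goblet cell pathway 0 were called by edgeR and 4 had an unadjusted p under 0.05 (median -0.13). Of 22 Toll-like receptor signalling genes 0 were called and 8 had an unadjusted p under 0.05 (median 0.16). Beside these counts, 2737 of all 16938 tested genes had an unadjusted p under 0.05. In GF libraries 0 genes of these 4 lists were called after vancomycin over all times.

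The same lists were read along position in GF colon, where 11.1% of all tested genes rose toward distal and 9.29% fell. Of 28 tested antimicrobial genes 18 rose toward distal and 0 fell, among them the beta-defensins Defb1 (1.45 ± 0.14 per unit, edgeR, adjusted p = 1.59e-08) and Defb45 (1.15 ± 0.11, adjusted p = 1.28e-08) and the protease inhibitor Slpi (1.05 ± 0.07, adjusted p = 2.65e-11). Reg3b, Reg3g and Itln1 fell on the same axis. Of 21 tested type 2 and goblet genes 9 rose, such as Spink4 (0.48 ± 0.06, adjusted p = 6.76e-07), and 2 fell, the mucin Muc2 (-0.30 ± 0.06, adjusted p = 0.000308) and its regulator Spdef (-0.18 ± 0.04, adjusted p = 0.00182). The IL-22 list had 3 of 19 higher and the Toll-like receptor list 3 higher and 1 lower of 22.

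The genes most like each effector were taken as the 3 with the highest smaller r over the 32 SPF and over the 32 GF libraries. For Reg3b and Reg3g they were each other, the bile acid transporter subunit Slc51a (smaller r = 0.80 with Reg3b and 0.79 with Reg3g) and Prap1 (0.75 and 0.76). For Reg4 they were Capn13 (0.76), the cholesterol-binding protein Npc2 (0.71) and 9030619P08Rik (0.70). For Retnlb they were Plet1 (0.72), Arhgap20 (0.71) and Zfp9 (0.70), and for Ang4 Cdc42ep2 (0.66), the lysophosphatidic acid receptor Lpar3 (0.64) and Sptssb (0.61). For Itln1 they were Gm9765 (0.99), Hsd17b13 (0.67) and Psca (0.62). Mptx1 had only weak likenesses, among them to Rdh9 (0.48) and Spink4 (0.45), and Mptx2 was most like Spink5 (0.67), Lrrc31 (0.64) and Capn13 (0.62).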

How the data were processed

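RNA of whole colon was sequenced in 64 libraries, 4 in each of 16 groups. The deposited values were taken as estimated counts per gene, 1 table for SPF and 1 for GF libraries, from their form (they are not whole and sum to a different total in each library). Trim Galore 0.6.2, cutadapt 3.5, Salmon and GRCm39 are named per the submitters' processing notes. For strand setting and gene annotation nothing was given in the sources used here. Columns of other samples numbered 0.

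Estimated counts were rounded, and genes with at least 10 in at least 4 libraries were kept. Each table was fitted with 8 group means in edgeR 4.0.16 (TMM scaling, quasi-likelihood test, R 4.3.3), and p-values were Benjamini-Hochberg adjusted over all tested genes, with a threshold of 0.05. A fit of all 64 libraries gave the difference between SPF and GF effects. The position slope used the Hox score as a covariate. The SE of a fold change or slope was taken as its size over the square root of F, and is not a fitted standard error. CPM is the estimated count over the TMM-scaled total, and likeness is Pearson's r of log2(CPM + 1). The scripts were tested on simulated data. Alternatives were DESeq2 1.42.0, limma 3.58.1 on log2(CPM + 1), DESeq2 size factors, no filter, a replicate block, covariates, other limits for on and another pseudocount, and each library left out. The 8 genes and all lists were chosen with earlier results of these data known. Named besides them were the 3 genes most like each (1 of which is not reported here), called genes of the lists, and genes said to be chosen after their values were seen. Promoters were found for 7 of the 8 genes, and motifs were searched on both strands. With totals of 10044032 to 15736087 estimated counts, Reg3b and Reg3g rest on few reads where they are off.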

Additional observations from a re-analysis of the deposited data

Results flagged for a closer look

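Each of the 8 genes was examined in each of the 16 groups of 4 libraries, 128 pairs of gene and group that share libraries and are not independent. In 14 of them 1 library stood apart from the other 3 by Dixon's ratio on log2(CPM + 1), where chance alone gives about 1 in 20. In SPF libraries, PBS ZT17 replicate 4 stood above its group for Reg3b (183 CPM) and Reg3g (156 CPM), and Vancomycin ZT5 replicate 3 stood above its group for Reg3g (6.31 CPM) and Mptx2 (284 CPM). Vancomycin ZT11 replicate 2 stood below its group for Itln1 (2.69 CPM), and Vancomycin ZT23 replicate 1 stood above its group for Ang4 (199.7 CPM). Reg4 was low in Vancomycin ZT5 replicate 4 (519 CPM) and in PBS ZT11 replicate 3 (63.7 CPM). In GF libraries, Vancomycin ZT11 replicate 1 stood above its group for Reg3b (7.50 CPM) and Reg3g (8.74 CPM) and below it for Reg4 (202 CPM). Reg4 was also low in Vancomycin ZT17 replicate 2 (65.5 CPM), Mptx2 was high in Vancomycin ZT23 replicate 3 (166.0 CPM), and Ang4 was high in PBS ZT11 replicate 3 (52.1 CPM).

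The vancomycin effect differed between times of day in SPF libraries for Itln1 (treatment by time, edgeR, adjusted p = 0.0089) and Mptx2 (adjusted p = 0.0133). Both genes were not on in the same 12 SPF libraries, which lay in 6 of the 8 SPF groups and in both treatments. Whether inherited differences between mice of this outbred stock took part was not tested.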

How the results depend on the processing

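No value changed its direction under any alternative run. Of single-gene values under an alternative, 1005 kept their side of the threshold, 36 passed it newly and 74 no longer passed, and of the counts of called genes 444 stayed within 1.5 times and 37 moved. With DESeq2, the number of the 8 genes called became 1 for vancomycin over all times in SPF (0 in edgeR), 5 at single times in SPF (2), 2 for SPF position (0), 1 at single times in GF (0), 1 for time of day after vancomycin in GF (0) and 8 for GF position (4). Over all genes DESeq2 called 240, 102, 147 and 42 at ZT5, ZT11, ZT17 and ZT23 in SPF (14, 0, 54 and 0 in edgeR). At these times in GF it called 9, 8, 13 and 55 (0 at each in edgeR). It called 541 for SPF position (289), 4110 for GF position (3465) and 179 for time of day after vancomycin in GF (24). With limma it became 0 at single times and 0 for treatment by time in SPF (2 each), 1 for time of day after PBS (4) and 1 for SPF position (0). Over all genes limma called 12, 7, 56 and 0 at ZT5, ZT11, ZT17 and ZT23 in SPF. It called 57 for treatment by time (61 in edgeR), 1452 for time of day after PBS (1507) and 369 for SPF position (289). Time of day after PBS in SPF gave 2 without a filter and 2 with position as a covariate. Over all genes these 2 runs gave 1075 and 398 calls, against 1507 in the main fit. Leaving out 1 library at a time gave 0 to 3 at single times in SPF, 2 to 3 for treatment by time, 0 to 6 for time of day after PBS, 2 to 4 after vancomycin, 0 to 2 for SPF position and 3 to 8 for GF position. The numbers called over all genes are not given for these runs. Over all genes, vancomycin over all times in SPF gave 137 calls in edgeR, 493 with DESeq2, 80 without a filter and 20 with an epithelium covariate. Replicate numbers did not clearly pair the libraries. In SPF the mean r was 0.04 for libraries sharing a number and -0.01 for those that did not, and in GF -0.04 and 0.01. Of 32 libraries each, 13 in SPF and 5 in GF correlated best with their own number. Whether the SPF number exceeds chance was not tested. With a replicate block, 2 genes were called for time of day after PBS in SPF, in place of 4, and Mptx1 at ZT5 passed (adjusted p = 0.0474). Over all genes the block gave 1303 calls for this time of day test, in place of 1507, and 15 at ZT5, in place of 14. The causes of these shifts were not tested.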

Other observations

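Within the 20 SPF libraries with Mptx2 on, Mptx1 went with Ang4 (r = 0.79, rho = 0.68) and Reg4 (r = 0.70, rho = 0.63). Reg3g went with Itln1 over the 32 GF libraries (r = 0.70, rho = 0.81), and Reg3b ran against Reg4 (r = -0.59, rho = -0.56). These libraries share depth and tissue makeup, and the values are descriptions.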
